A study of Mus musculus with 12 samples.

Results

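The regions described here are stretches of open chromatin that were found at every stage of a reprogramming series and that lie away from the ends of genes. Of 115000 regions with deposited counts, 12677 overlapped an interval of each of the 4 stage lists by at least 1 bp. Of these, 4543 lay more than 1 kb from both ends of every protein-coding gene (35.8% of the regions in all 4 lists and 3.95% of all counted regions). The members were thus chosen from interval lists made from the same libraries as the counts, and their levels and changes are a description of regions that had to be open in all groups.

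Open chromatin was measured by ATAC-seq, in which the Tn5 transposase inserts adapters into accessible DNA. The 4 groups of 3 libraries were mouse embryonic fibroblasts (MEF), which were unsorted, Stage 1 cells at day 6, Stage 2 cells after 4 more days, and established induced pluripotent stem cells (iPSC). The last 3 groups were sorted as Oct4-GFP+, that is, for a green fluorescent reporter of the pluripotency gene Oct4 (Pou5f1). All groups had a mixed C57BL/6 and 129 background, and the labels name the method 3c enhanced reprogramming. Stage and sorting differed together between MEF and the later groups and cannot be told apart. The sources do not say whether replicates were separate cultures. A p-value here thus sets a group difference against the spread of these libraries, which may be only technical.

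Chromatin that is open in unlike cell types is known to lie mostly at promoters and at sites bound by the insulator protein CTCF, whereas distal enhancers tend to be open in few cell types. A region far from the ends of a gene can still be a promoter, because many genes have further start sites inside their span and many non-coding RNA genes lie between genes. Genes for transfer RNA (tRNA), which RNA polymerase III transcribes from a promoter within the gene, are also open in most dividing cells.

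RefSeq start sites marked a large part of these regions. A RefSeq start window reaches from 250 bases before a transcript start to 50 after it. Such a window overlapped 1016 of the 4543 regions (22.4%). Of these, 777 (17.1% of all members) held a start inside a protein-coding gene, here called an inner start, and 239 (5.26%) held only starts of non-coding genes. The bases before 6 of these starts are printed because the regions around them carry the results on steady, falling and rising members. Coordinates are of GRCm38.p6, which is mm10, and the sequences are from RefSeq, 5′ to 3′ on the strand of the gene. Capitals mark every match, on either strand, to the motifs listed further on.
Dusp16 inner start, in 1 of the 5 steadiest members, chr6:134792629-134792878, minus strand: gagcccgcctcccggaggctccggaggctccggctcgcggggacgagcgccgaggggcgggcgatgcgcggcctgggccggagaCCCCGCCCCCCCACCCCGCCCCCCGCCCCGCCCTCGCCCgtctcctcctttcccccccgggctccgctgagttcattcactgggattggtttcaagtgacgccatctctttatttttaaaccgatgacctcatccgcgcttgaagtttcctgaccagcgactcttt
Arrdc3 inner start, in the inner start member of highest mean level, chr13:80885845-80886094, plus strand: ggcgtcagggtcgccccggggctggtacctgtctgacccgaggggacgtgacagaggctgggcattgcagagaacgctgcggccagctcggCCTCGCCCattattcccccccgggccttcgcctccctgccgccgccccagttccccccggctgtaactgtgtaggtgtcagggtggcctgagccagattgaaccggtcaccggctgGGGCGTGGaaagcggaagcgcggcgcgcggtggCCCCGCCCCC
Snhg8 start, a non-coding gene, chr3:123508337-123508586, minus strand: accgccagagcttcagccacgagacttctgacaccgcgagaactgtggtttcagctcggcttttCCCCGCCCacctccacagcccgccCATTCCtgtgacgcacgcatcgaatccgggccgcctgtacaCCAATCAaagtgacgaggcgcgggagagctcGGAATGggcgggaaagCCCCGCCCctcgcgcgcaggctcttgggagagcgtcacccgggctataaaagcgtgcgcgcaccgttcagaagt
Hk1 inner start, in a member that fell, chr10:62340422-62340671, minus strand: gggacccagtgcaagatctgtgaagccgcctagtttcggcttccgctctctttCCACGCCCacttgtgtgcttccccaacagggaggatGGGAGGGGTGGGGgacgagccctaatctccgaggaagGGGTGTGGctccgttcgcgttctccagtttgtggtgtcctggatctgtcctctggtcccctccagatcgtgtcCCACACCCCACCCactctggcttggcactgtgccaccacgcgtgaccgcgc
Tgfb2 inner start, in a member with no called change, chr1:186705990-186706239, minus strand: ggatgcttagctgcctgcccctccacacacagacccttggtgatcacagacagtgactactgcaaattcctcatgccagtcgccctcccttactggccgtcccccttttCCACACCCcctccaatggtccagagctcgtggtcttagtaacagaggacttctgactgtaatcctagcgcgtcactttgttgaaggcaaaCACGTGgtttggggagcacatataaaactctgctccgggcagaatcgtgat
1700019D03Rik inner start, in a member that rose, chr1:52952841-52953090, minus strand: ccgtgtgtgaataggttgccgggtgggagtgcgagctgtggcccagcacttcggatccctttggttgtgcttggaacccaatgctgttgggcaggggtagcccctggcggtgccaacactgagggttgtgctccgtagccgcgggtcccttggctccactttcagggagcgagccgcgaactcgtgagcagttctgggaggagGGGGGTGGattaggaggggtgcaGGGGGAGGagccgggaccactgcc
The capitals in these windows are matches to the Klf and Sp box CCNCNCCC or its complement, apart from CCAATCA (NFY) and GGAATG or its complement (TEAD) before Snhg8 and CACGTG (E-box) before Tgfb2. Before Dusp16 the capitals are 1 run of overlapping Klf and Sp matches.

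The start windows in these regions were richer in CpG than start windows in general, and less rich than those near gene ends. Over the 1264 windows in members, the median GC content was 61.7% and the median ratio of observed to expected CpG was 0.725. The 8315 windows in regions of all 4 lists near gene ends had medians of 63.0% and 0.815, and the 891 windows in distal regions of the MEF list alone had 50.3% and 0.272. A ratio of at least 0.6, a usual mark of a CpG island, was found in 68.5% of the member windows, in 74.3% of those of protein-coding genes and in 53.2% of those of non-coding genes, against 84.0% of the windows near gene ends and 35.8% of all 32851 windows. The windows of Dusp16 (0.855), Arrdc3 (0.884), Snhg8 (1.04) and Hk1 (0.665) passed this ratio, and those of Tgfb2 (0.458) and 1700019D03Rik (0.587) did not.

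Motifs were searched on both strands of each 300-base window, and a match says only that the letters are present. The Klf and Sp box CCNCNCCC, read by zinc finger factors, was found in 71.0% of the member windows, in 73.2% of windows near gene ends and in 49.5% of all windows. CCAATCA, the site of the promoter factor NFY, was found in 11.3%, 13.2% and 7.82%. The ETS site CCGGAAGT was found in 5.46%, 9.43% and 3.89%, the NRF1 site GCGCATGCG in 2.37%, 4.17% and 1.75%, and the YY1 site AAGATGGC in 2.61%, 4.98% and 2.75%. All 5 of these promoter motifs were thus somewhat less frequent in members than near gene ends. The CTCF core went the other way, at 2.06% of member windows, 0.818% near gene ends and 0.557% of all windows, and it was in 4.05% of the 346 member windows of non-coding genes. These CTCF shares rest on few matches, 26 in member windows, of which 14 were in those of non-coding genes. TGANTCA, the site of the somatic factor AP-1, was in 4.98% of member windows, 3.42% near gene ends, 7.81% of all windows and 23.2% of windows in distal regions of the MEF list alone. The octamer ATGCAAAT, to which Oct4 binds, was in 2.45%, 1.42%, 1.74% and 1.57% of the same sets. CATTGT (Sox), TCAAGGTCA (Esrrb), TGTGGTTA (RUNX), GGAATG (TEAD) and CACGTG (E-box) were in 8.86%, 0.158%, 0.633%, 13.4% and 9.97% of member windows, and in 12.6%, 0.423%, 0.752%, 14.7% and 7.15% of all windows. For Esrrb and RUNX the member shares stand for only 2 and 8 windows. The sets differ in base composition, as their GC contents show, and its part in these shares was not tested. The 3527 members with no RefSeq start were not searched.

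Compared with other distal regions, the members held more starts, non-coding gene ends and tRNA genes. A RefSeq start lay in 1.33% of the 61616 distal regions of the MEF list alone and in 2.83% of the 6141 distal regions of the Stage 1, Stage 2 and iPSC lists, against the 22.4% of members. Regions of all 4 lists near gene ends had a start in 76.5% of cases, which follows from where they lie. An end of a long non-coding RNA (lncRNA) gene lay within 1 kb of 590 members (13.0%), 4.21% of the MEF-list regions and 5.91% of the regions of the 3 later lists. In the regions of all 4 lists near gene ends this share was 13.4%, so it was not particular to the distal members. A tRNA gene lay in 53 members (1.17%), 0.0487% of the MEF-list regions, 0.0163% of the regions of the 3 later lists and 0.182% of all counted regions. The members thus hold 53 of the 209 counted regions with a tRNA gene. Small nuclear RNA (snRNA) genes lay in 13 members and miRNA hairpin genes in 11.

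**Figure D1:**
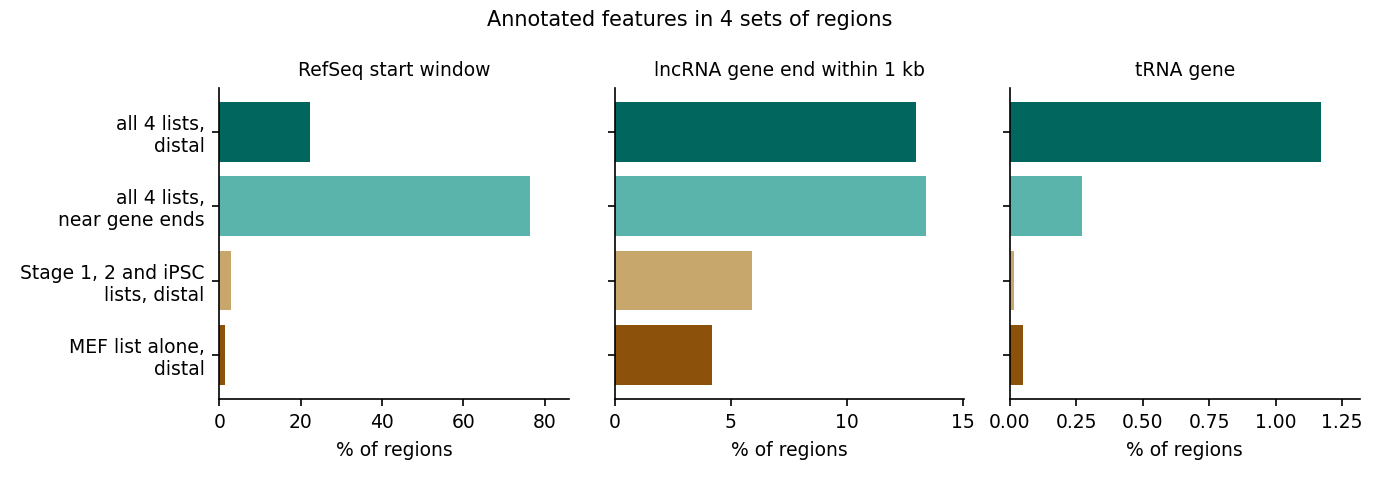
Share of regions with a RefSeq start window, a lncRNA gene end within 1 kb or a tRNA gene (x axes, % of regions, each panel on its own scale) for the 4543 members and other sets of counted regions. The members, at 22.4%, 13.0% and 1.17%, stand above both other distal sets in all 3 panels. Regions of all 4 lists near gene ends had 76.5%, 13.4% and 0.27%.

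The members were also wider and closer to genes than other distal regions. Their median width was 750 bp, against 550 bp in distal regions of the MEF list alone and 650 bp in those of the 3 later lists. The median distance to the nearest gene end was 12374 bp (quartiles 4160 and 39070 bp), against 36354 and 26947 bp. Of the members, 2560 (56.4%) lay inside a protein-coding gene, 1747 (38.5%) outside but within 100 kb of one, and 236 (5.19%) had none within 100 kb. Just inside the 1 kb limit, the 136 members from 1002 to 1198 bp away had a start in 42.6% and a median level of 24.7 CPM. Just outside it, the 139 regions of all 4 lists from 803 to 996 bp away had a start in 45.3% and a median of 27.3 CPM. CPM are counts per 1000000 reads in regions, scaled by the trimmed mean of M-values (TMM).

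The lists covered most of each member, with a median of 93.1% of the width in the MEF list, 85.7% in Stage 1, 84.2% in Stage 2 and 73.3% in iPSC. At least 50% of the width was covered by each list in 3483 members (76.7%), and 116 members (2.55%) had under 25% in at least 1 list. Distal regions that missed the iPSC list alone (1732) had a median of 10.7 CPM in iPSC, where the members had 19.5 CPM. Those that missed the MEF list alone (6141) had 1.57 CPM in MEF, against 16.4 CPM for the members. The set was thus set off less sharply from its neighbours in iPSC than in MEF.

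The libraries held from 14310290 to 32229388 reads, of which 1034936 to 6261903 fell in counted regions, and the median count of a member was from 19 to 71 per library. The share of reads in regions was 22.1%, 16.7% and 11.3% in MEF replicates 1 to 3. It ranged from 7.36% to 8.12% at Stage 1, lay between 5.31% and 6.91% at Stage 2 and between 4.50% and 5.25% for iPSC, so the MEF libraries stood apart from the rest and from each other. As a check of the labels, summed levels of regions inside or within 10 kb of marker genes went from 433 CPM in MEF to 148 in iPSC for fibroblast genes (Thy1, Twist2, Col1a1, Prrx1) and from 24.0 to 335 CPM for pluripotency genes (Zfp42, Fgf4, Nr0b1, Dppa5a). Sums for blood genes (Ptprc, Cd48, Ikzf1) went from 15.2 to 92.8 CPM and for endothelial genes (Tie1, Emcn, Kdr) from 143 to 51.2 CPM, no marker was at 0, and the part of other cells in the results was not tested. In bulk libraries, a site open in fewer cells and a site less open in each cell cannot be told apart.

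The members took a larger share of the reads in regions after MEF, and a smaller share of all reads. Of the reads in regions, they held 7.72%, 7.67% and 7.88% in the 3 MEF libraries, 12.5%, 12.4% and 12.3% in Stage 1, 12.1%, 11.9% and 11.6% in Stage 2, and 11.5%, 11.5% and 11.2% in iPSC. No MEF library overlapped a later one, and the mean went from 7.76% ± 0.111 in MEF to 11.4% ± 0.210 in iPSC (SD, n = 3 each; two-sided exact permutation p = 0.1, the smallest that 3 against 3 can give, adjusted 0.123 over 48 such tests). Of all reads, the members held 1.70%, 1.28% and 0.892% in MEF, 0.920%, 0.922% and 0.999% in Stage 1, 0.834%, 0.697% and 0.613% in Stage 2, and 0.585%, 0.605% and 0.502% in iPSC. On this scale every iPSC library lay below every MEF library (exact permutation p = 0.1), while Stage 1 lay within the range of MEF. The direction of the summed level therefore depends on whether reads outside the regions are counted in the total. Relative to the read density outside the regions, the members without the densest 49 stood 11.1-fold ± 4.52 above it in MEF and 3.81-fold ± 0.439 in iPSC (SD, n = 3 each).

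**Figure D2:**
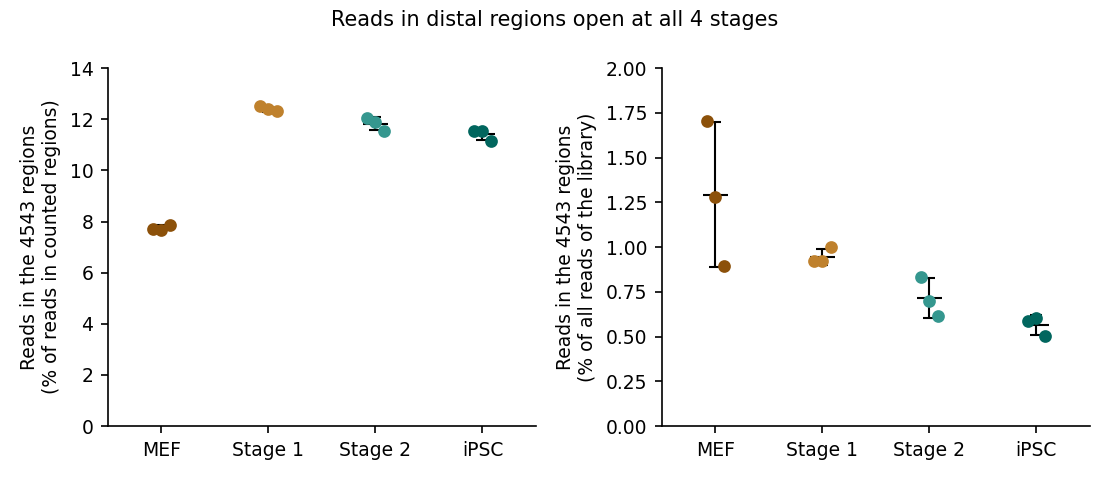
Reads in the 4543 distal regions as a percentage of reads in all counted regions (left) and of all reads of the library (right) for 3 libraries a group; points are libraries, bars the mean and SD. From MEF to iPSC the mean is higher on the left (7.76% to 11.4%) and lower on the right (1.29% to 0.564%).

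A share taken within the regions of all 4 lists does not use that total. Of the reads in regions of all 4 lists (the densest 49 members left out), the distal members held 23.5%, 22.8% and 23.4% in MEF, 27.2%, 28.1% and 27.8% in Stage 1, 28.4%, 28.6% and 28.8% in Stage 2, and 29.1%, 29.4% and 29.7% in iPSC. The rest lay in the 8134 regions near gene ends. Each group lay above the one before it without overlap (exact permutation p = 0.1 for each step, adjusted 0.123). With the level outside the regions subtracted, a step added after seeing the data, the means of MEF, Stage 1, Stage 2 and iPSC were 22.5%, 26.9%, 27.6% and 28.2%, again without overlap. Most of the gain of the distal members over the regions near gene ends was present at day 6.

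Against MEF, more members rose than fell in Stage 1 when scaled to reads in regions, and more fell than rose when scaled to all reads. By edgeR's quasi-likelihood test with Benjamini-Hochberg adjustment over all 71069 tested regions, 2026 of 4541 members rose and 787 fell (61.9%, with 80.4% of all tested regions called, 40.0% higher and 40.4% lower), and the median log2 change was 0.40 against 0.02 for all tested regions. Scaled to all reads of the library, 593 members rose and 1557 fell with a median of -0.32 (all tested regions 78.4% called, 29.4% higher and 49.1% lower, median -0.70). With no filter on low counts the split was 3035 to 203, and with region reads thinned to the smallest library 2152 to 354. The split between rises and falls thus followed the scaling and the filter.

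The next steps were small. From Stage 1 to Stage 2, 104 members rose and 362 fell (10.3%, against 10.8% of all tested regions, of which 5.14% rose and 5.62% fell), with a median log2 change of -0.12. Without Stage 1 replicate 2 or 3 the total of 466 became 285 or 237, and without Stage 2 replicate 2 or 3 it became 275 or 269. From Stage 2 to iPSC, 16 rose and 85 fell (2.22%, against 1.85% of all tested regions, 0.498% higher and 1.36% lower), with a median of -0.07. The total of 101 became 14, 38 or 64 without Stage 2 replicate 1, 2 or 3, and 19, 20 or 26 without iPSC replicate 1, 2 or 3. Scaled to all reads, the splits were 8 to 295 from Stage 1 to Stage 2 (all tested regions 7.86% called, 1.55% higher and 6.31% lower) and 0 to 11 from Stage 2 to iPSC (0.895% called, 0.0380% higher and 0.857% lower). The shares called are near those of all tested regions and are no result about the members.

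Between the end points, 1750 members rose and 1146 fell from MEF to iPSC (63.8%, against 82.1% of all tested regions, of which 39.1% rose and 43.0% fell), with a median log2 change of 0.23 against -0.11 for all tested regions. This comparison shares its MEF libraries with the comparison of Stage 1. Scaled to all reads, 164 rose and 2699 fell (all tested regions 81.5% called, 23.7% higher and 57.8% lower), with a median of -1.04 against -1.38. Without the filter on low counts the split was 2507 to 486, and with thinned libraries 1966 to 581. The change stayed within 1 log2 unit in 66.5% of the members and in 29.7% of all tested regions. Over the 4 group means, the range was under 1 log2 unit in 2572 members (56.6%) and in 23.3% of all tested regions, although 3426 members (75.4%, against 87.9% of all tested regions) differed somewhere among the groups by the edgeR test. Presence in all 4 lists limits how far a member can change, so these shares also reflect the choice of members. The filter on low counts removed 2 members, a region near Rbfox1 (chr16:5881751-5882250, from 5 to 15 reads per library) and one inside Vwa3a (chr7:120754551-120755100, from 4 to 39 reads).

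Members with and without a start moved apart. From MEF to iPSC, 117 of the 777 members at an inner start rose and 374 fell, with a median log2 change of -0.37 (-1.64 scaled to all reads). Of the 239 at a non-coding start only, 53 rose and 91 fell (median -0.18, and -1.45 scaled to all reads). Of the 3525 tested members with no start 1580 rose and 681 fell, with a median of 0.45 that turned to -0.82 when scaled to all reads. Among all tested regions 39.1% rose and 43.0% fell. Against these shares, 15.1% of inner start members rose and 48.1% fell, 22.2% of non-coding start members rose and 38.1% fell, and 44.8% of members with no start rose and 19.3% fell. The share of inner start members that fell and the share of no-start members that rose were thus near those of all tested regions, and the opposite directions were rarer than there. The order of the 3 medians was the same under both scalings, while the sign of the last was not. The 8134 regions of all 4 lists near gene ends had 1056 rising and 4412 falling, with a median of -0.48 (-1.76 scaled to all reads). Within the members with a start, the 700 whose window had a CpG ratio of at least 0.6 had 78 rising and 364 falling (median -0.43, and -1.71 scaled to all reads), and the 316 with a lower ratio had 92 and 101 (median -0.04, and -1.30 scaled to all reads). The range of the 4 group means was under 1 log2 unit in 72.3% of inner start members, 67.4% of non-coding start members and 52.5% of members with no start.

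**Figure D3:**
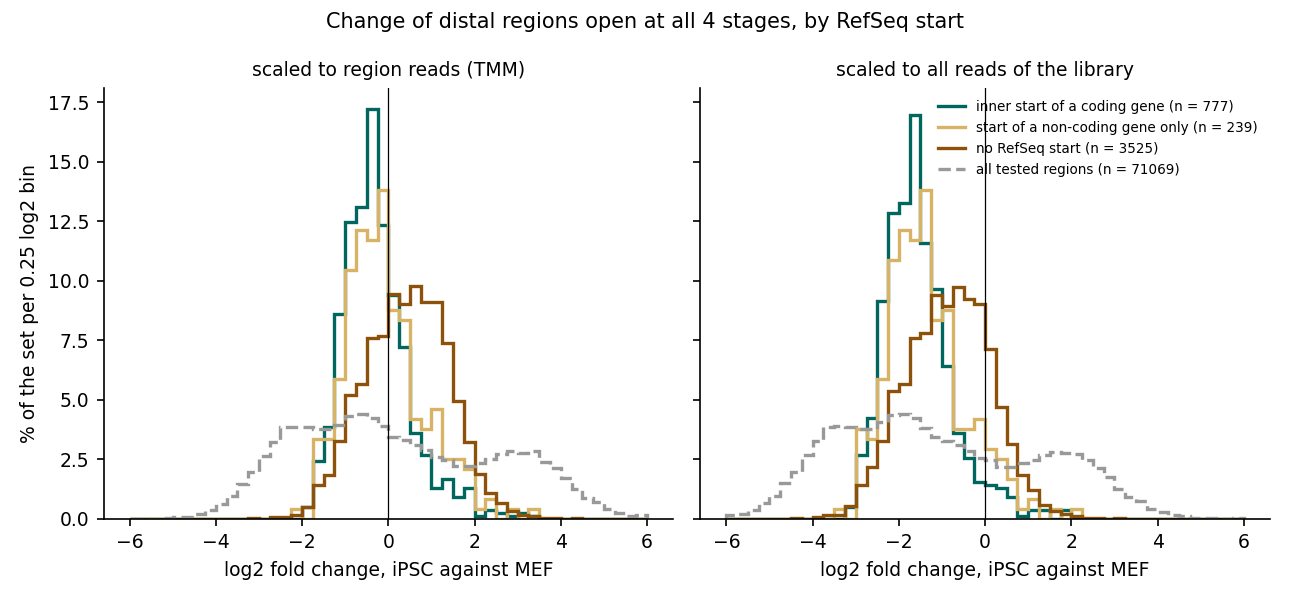
Distribution of log2 fold changes from MEF to iPSC (y axis, % of the set) for members at an inner coding start, at a non-coding start only and with no RefSeq start, and for all tested regions, scaled to region reads (left) and to all reads (right). Members with no start (median 0.45, right panel -0.82) lie to the right of members at inner starts (-0.37, right panel -1.64) under both scalings.

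The same shift was seen in each library as a share of member reads. Without the densest 49 members, regions with a start held 35.1%, 35.8% and 34.7% of member reads in MEF, 30.1%, 29.3% and 29.5% in Stage 1, 28.9%, 29.0% and 28.5% in Stage 2, and 28.2%, 27.9% and 27.8% in iPSC. Each group lay below the one before it without overlap, from a mean of 35.2% in MEF to 27.9% in iPSC (exact permutation p = 0.1 for each step, adjusted 0.123). With the outside level subtracted, the means of MEF, Stage 1, Stage 2 and iPSC were 36.3% ± 0.525, 30.4% ± 0.526, 29.7% ± 0.292 and 28.9% ± 0.214 (SD, n = 3 each), and Stage 1 and Stage 2 then overlapped. The difference of Stage 1 from MEF was -5.58 percentage points as counted and -5.94 with the outside level subtracted.

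**Figure D4:**
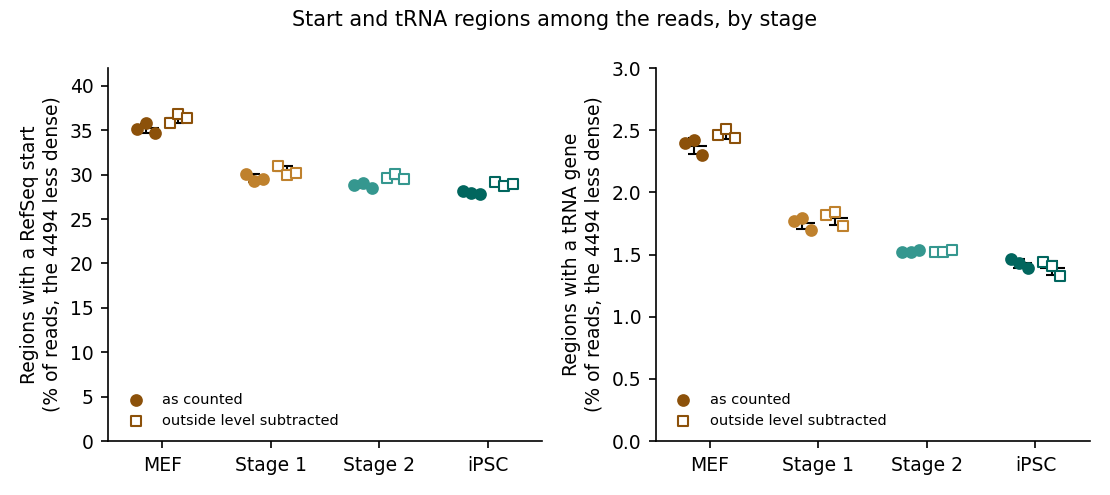
Share of member reads, without the densest 49 members, in regions with a RefSeq start (left) and with a tRNA gene (right), by group and library. As counted, the means go from 35.2% and 2.37% in MEF to 27.9% and 1.43% in iPSC.

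Members with a tRNA gene fell together. Of the 53, 39 fell from MEF to iPSC (73.6%, against 43.0% of all tested regions) and 2 rose (3.77%, against 39.1%), with a median log2 change of -0.77. Scaled to all reads, 52 fell (98.1%, against 57.8% of all tested regions) and 0 rose (against 23.7%), with a median of -2.05. Their share of member reads was 2.40%, 2.42% and 2.30% in MEF, 1.77%, 1.79% and 1.70% in Stage 1, 1.52%, 1.52% and 1.53% in Stage 2, and 1.46%, 1.44% and 1.39% in iPSC. No group overlapped another (exact permutation p = 0.1 for each step, adjusted 0.123), and the order was the same with the outside level subtracted (means 2.47%, 1.79%, 1.53% and 1.39%). The member with the highest level lies 15044 bp from Trim55 (chr3:19627701-19629300) and holds 4 tRNA genes, for alanine, arginine and tyrosine. It measured 172, 182 and 151 CPM in MEF, 94.03, 84.6 and 91.5 in Stage 1, 66.1, 84.7 and 60.9 in Stage 2, and 52.6, 71.9 and 58.1 in iPSC, so every later library lay below MEF. Its log2 change to iPSC was -1.47 (SE 0.15, edgeR adjusted p = 4.96e-16). A region near Rnase4 with a threonine and a tyrosine tRNA gene (chr14:51088501-51089850) fell by 1.12 (SE 0.15), and one near Shf with 2 histidine tRNA genes (chr2:122377101-122378350) fell by 0.89 (SE 0.16). Many tRNA genes have near-identical copies, and the sources used here do not say how reads of copies were counted.

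Of the 13 members with an snRNA gene, 3 rose (23.1%) and 7 fell (53.8%) from MEF to iPSC, with a median of -0.51. Over all tested regions 39.1% rose and 43.0% fell. Scaled to all reads, 0 of the 13 rose and 10 fell (76.9%), with a median of -1.80, where 23.7% and 57.8% of all tested regions did. The difference from these shares was not tested. The highest, near Pecr with the snRNA gene Gm25939 (chr1:72254501-72255850), went from 131, 126 and 104 CPM in MEF to 47.9, 64.96 and 83.6 in Stage 1 and 41.6, 56.9 and 47.1 in iPSC, and every later library lay below MEF (-1.32, SE 0.16, edgeR adjusted p = 1.29e-12). Copies of snRNA genes are also alike. The tRNA, snRNA and miRNA members and the starts of highest level were chosen for description after their values were seen.

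Of the 11 members with a miRNA hairpin gene, 2 rose (18.2%) and 3 fell (27.3%) from MEF to iPSC, with a median of 0.03. Over all tested regions 39.1% rose and 43.0% fell. Scaled to all reads, 0 of the 11 rose and 9 fell (81.8%), with a median of -1.22, where 23.7% and 57.8% of all tested regions did. For each of the 3 hairpins described next, 1 mature miRNA is given with the seed, bases 2 to 8, in capitals, from RefSeq (GRCm38.p6). That of Mir210 lies just outside the counted region, which overlaps only part of the hairpin.
mmu-miR-210-3p, chr7:141221407-141221428, minus strand: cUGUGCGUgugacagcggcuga
mmu-let-7i-5p, chr10:122985698-122985719, minus strand: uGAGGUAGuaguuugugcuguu
mmu-miR-128-3p, chr9:112118644-112118664, minus strand: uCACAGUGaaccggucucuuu
None of the 3 shares a seed with another. The region at Mir210, whose miRNA is known to be induced by low oxygen, overlaps part of the hairpin 2793 bp from Rassf7 (chr7:141221451-141222350) and measured 105, 102 and 103 CPM in MEF, 59.9, 45.4 and 48.3 in Stage 1, 39.01, 54.6 and 40.6 in Stage 2, and 34.5, 34.3 and 37.1 in iPSC. No later library reached MEF, and the log2 change to iPSC was -1.55 (SE 0.16, edgeR adjusted p = 5.46e-15). Mirlet7i encodes a member of the let-7 family, which is known to promote differentiation and to be held low in pluripotent cells. Its region (chr10:122985501-122986650) measured 58.3, 60.8 and 39.6 CPM in MEF and 36.1, 27.6 and 43.1 in iPSC, which overlap, and fell by 0.61 (SE 0.18, edgeR adjusted p = 0.00147). The region at Mir128-2 inside Arpp21 (chr9:112118151-112118850), whose miRNA is known from brain, went from 8.77, 5.81 and 6.20 CPM in MEF to 35.95, 57.8 and 55.5 in Stage 1 and 23.6, 25.1 and 17.03 in iPSC. It was highest in Stage 1 without overlap with any other group, with a log2 change of 2.80 (SE 0.23) to Stage 1 and 1.63 (SE 0.27, edgeR adjusted p = 4.48e-08) from MEF to iPSC. Scaled to all reads the last value was 0.35 (adjusted p = 0.375).

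Of the 4 inner start members of highest mean level, 3 fell from MEF to iPSC: those of Lrif1 (log2 change -0.83, SE 0.14, edgeR adjusted p = 1.28e-07), Prdm10 (-0.43, SE 0.14, edgeR adjusted p = 0.00461) and Cetn3 (-0.35, SE 0.14, edgeR adjusted p = 0.0199). Of all inner start members 48.1% fell, and of all tested regions 43.0% (87.9% and 57.8% scaled to all reads). The 4 were picked by level, and their count is no result about inner starts. The inner start of Arrdc3, an arrestin-domain gene, lies in chr13:80885301-80886500 and measured 140.5, 121 and 97.8 CPM in MEF, 150.3, 116 and 135 in Stage 1, 119, 109.9 and 99.2 in Stage 2, and 108, 112 and 81.2 in iPSC. All groups overlapped MEF, and the log2 change to iPSC was -0.26 (SE 0.14, edgeR adjusted p = 0.0789), which became -1.56 (adjusted p = 5.5e-07) when scaled to all reads. The region at the non-coding start of Snhg8, a host gene of small nucleolar RNA (chr3:123508051-123509050), went from 119.6, 98.98 and 89.2 CPM in MEF to 58.1, 101 and 70.1 in iPSC, which overlap (log2 change -0.44, SE 0.15, edgeR adjusted p = 0.00611). Lrif1, whose product is known as a nuclear receptor interacting protein, has an inner start in chr3:106721301-106722450. Its 156, 138 and 124 CPM in MEF and 135, 159.8 and 144 in Stage 1 lay above the 99.4, 82.6 and 76.7 in Stage 2 and the 81.6, 86.96 and 66.1 in iPSC. From Stage 1 to Stage 2 the Lrif1 region fell by 0.75 (SE 0.14, edgeR adjusted p = 9.99e-05).

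The steadiest members were those with the smallest range of the 4 group means at a mean of at least 4 log2 CPM. They were chosen for this, so no test is given. The inner start of Dusp16, a phosphatase of stress kinases (chr6:134792351-134793100), which also holds a start of the lncRNA gene 1700055D16Rik, measured 32.7, 44.5 and 23.9 CPM in MEF, 25.8, 29.9 and 42.5 in Stage 1, 30.8, 32.1 and 31.6 in Stage 2, and 35.3, 31.8 and 26.1 in iPSC. All groups overlapped. The region near Fignl1 (chr11:11788351-11789150) measured from 29.3 to 34.4 CPM in MEF and from 29.04 to 35.1 in iPSC, and that near Ptp4a3 (chr15:73716201-73717000) from 13.8 to 18.9 and from 13.3 to 20.04. The other 2 lie inside N4bp2 (chr5:65763701-65764600) and at chr8:20121901-20122800 with no protein-coding gene within 100 kb. Their steadiness belongs to the scaling to region reads: scaled to all reads, the log2 changes of the 5 from MEF to iPSC lay between -1.41 and -1.22.

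The members that rose most from MEF were low in fibroblasts, where the rule required only an overlap with the MEF list. Their levels in MEF were not set against the level outside the regions. The region near Rab3c that overlaps the lncRNA gene Gm32881 (chr13:110018301-110019950) measured 10.7, 16.3 and 8.11 CPM in MEF, 148, 148 and 149.8 in Stage 1, 199, 171 and 135 in Stage 2, and 180.5, 167 and 144 in iPSC. Every later library lay above MEF, and the log2 change to iPSC was 3.76 (SE 0.17, edgeR adjusted p = 5.01e-37; 2.50 scaled to all reads). The region at the inner start of 1700019D03Rik (chr1:52952551-52954000), printed above, went from 8.53, 6.36 and 7.15 CPM to 112, 100 and 116 in Stage 1, with a log2 change of 3.87 (SE 0.19, edgeR adjusted p = 1.84e-36). It stood at 94.4, 98.3 and 73.7 CPM in Stage 2 and 72.99, 77.8 and 65.1 in iPSC, so its highest libraries were those of day 6, and it is one of the inner starts that rose where more of them fell. A region inside Trdn, a gene of the muscle calcium store (chr10:33375301-33376200), went from 3.79, 3.59 and 5.25 CPM in MEF to 33.2, 31.97 and 30.97 in Stage 1, 84.3, 73.1 and 51.9 in Stage 2, and 44.7, 57.7 and 55.1 in iPSC (log2 change 3.67 from MEF to iPSC, SE 0.24, edgeR adjusted p = 8.28e-27). Scaled to all reads, the Trdn change was 2.41. A region near Dse that overlaps the lncRNA gene Gm26564 (chr10:34233801-34234700) rose by 3.80 to Stage 1 (SE 0.21).

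The largest of the named rises lies in a stretch where counts are uncertain. The region chr1:24612401-24613050, 24479 bp from Col19a1, holds the pseudogene Gm10222. The next pseudogene of the gene table, Gm10925, carries the mitochondrial name mt-Atp6 as a synonym, so reads of mitochondrial DNA and of a nuclear copy cannot be told apart here. The region measured 7.58, 1.94 and 3.81 CPM in MEF, 83.9, 202 and 124 in Stage 1, 44.04, 43.7 and 42.1 in Stage 2, and 85.5, 106 and 116 in iPSC. The log2 changes were 4.83 to Stage 1 (SE 0.40, edgeR adjusted p = 2.46e-07), -1.64 from there to Stage 2 (SE 0.32, edgeR adjusted p = 0.00741) and 4.42 from MEF to iPSC (SE 0.41).

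The members that fell most were low in the later groups, whose lists they had to overlap by the rule. Whether these low levels stood above the level outside the regions was not tested. The region chr9:34279151-34280400, with no protein-coding gene within 100 kb, measured 132, 109.8 and 91.1 CPM in MEF, 16.6, 15.5 and 16.6 in Stage 1, 12.6, 12.97 and 10.5 in Stage 2, and 14.9, 13.4 and 8.02 in iPSC. Most of the loss was present at day 6, with log2 changes of -2.78 to Stage 1 (SE 0.19, edgeR adjusted p = 3.6e-25) and -3.17 to iPSC (SE 0.20). The region 10892 bp from Chit1 (chr1:134098951-134100350) went from 103, 102 and 102 CPM in MEF to 19.4, 21.6 and 19.4 in Stage 1 and 11.8, 16.7 and 19.04 in iPSC (log2 change -2.71, SE 0.19, edgeR adjusted p = 2.62e-24). A region near Scmh1, which encodes a Polycomb protein, overlaps the lncRNA gene Gm36574 (chr4:120380551-120381450) and fell by 2.66 (SE 0.23). Regions inside Xpnpep1, an aminopeptidase gene (chr19:53007951-53008850), and near Crabp1, whose product carries retinoic acid (chr9:54802701-54803750), fell by 2.69 (SE 0.21) and 2.50 (SE 0.21) from MEF to Stage 1.

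Between Stage 1 and Stage 2, the largest named rise was at chr12:54312451-54313900, with no protein-coding gene within 100 kb. It measured 29.5, 30.9 and 17.3 CPM in Stage 1 and 78.02, 78.5 and 65.4 in Stage 2 (log2 change 1.56, SE 0.20, edgeR adjusted p = 4.42e-09), and 87.9, 68.6 and 55.1 CPM in iPSC. A region inside Fam178b (chr1:36580251-36581050) rose by 1.45 (SE 0.27, edgeR adjusted p = 4.33e-05), and by 1.15 (adjusted p = 0.0408) when scaled to all reads. The largest named falls were at regions that had risen from MEF to Stage 1. The region near Clrn3 (chr7:135479101-135480150) went from 20.9, 17.7 and 8.11 CPM in MEF to 48.9, 40.2 and 51.9 in Stage 1 and 11.9, 15.02 and 12.03 in Stage 2 (log2 change -1.86, SE 0.25, edgeR adjusted p = 1.89e-08). A region near Rgs7, a regulator of G protein signalling (chr1:175028501-175029250), fell by 1.84 (SE 0.23) after rising by 2.37 from MEF to Stage 1. On the scale of region reads, Stage 1 stood above MEF and Stage 2 without overlap in both regions. The lack of overlap with Stage 2 was required by the rule that picked them. The rise and the fall share the Stage 1 libraries and are not independent. Counted against all reads, the Clrn3 region measured 3.099, 1.986 and 0.656 CPM in MEF and 3.257, 2.725 and 3.818 in Stage 1, which overlap. On that scale MEF and Stage 1 did not overlap in the Rgs7 region. A region near Ppp1r10 (chr17:35939851-35940400) rose by 1.46 (SE 0.36, edgeR adjusted p = 0.00262), but without Stage 1 replicate 3 its adjusted p was 0.0544 with a log2 change of 1.26, and scaled to all reads 0.0844 with 1.14.

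From Stage 2 to iPSC, most of the largest changes depended on single libraries. A region at chr11:112501601-112502300, with no protein-coding gene within 100 kb, went from 27.1, 21.2 and 23.3 CPM to 56.5, 58.5 and 36.1 (log2 change 1.09, SE 0.21, edgeR adjusted p = 0.00126) and kept its call without any single library, though not when scaled to all reads (adjusted p = 0.222). A region near Ppp1r12a, a subunit of myosin phosphatase (chr10:108113201-108114000), rose by 1.10 (SE 0.23) and lost its call without iPSC replicate 1 (0.96, adjusted p = 0.0776) and when scaled to all reads (0.83, adjusted p = 0.253). A region inside Fancm, a DNA repair gene (chr12:65114901-65115650), went from 25.8, 33.5 and 18.8 CPM to 7.85, 14.2 and 10.02 (log2 change -1.29, SE 0.29, edgeR adjusted p = 0.00636). Its adjusted p was 0.0861 without Stage 2 replicate 2 (log2 change -1.08) and 0.0933 without iPSC replicate 1 (-1.10). A region inside Epb41l4b (chr4:57091251-57091900) fell by 1.35 (SE 0.31), with adjusted p of 0.0517 without Stage 2 replicate 3 (-1.22), 0.142 without iPSC replicate 1 (-1.04) and 0.0885 without iPSC replicate 3 (-1.14). The remaining 2 of the 6, near Zfp950 (chr19:61151301-61152150) and at chr13:3406551-3407100, changed by 1.11 (SE 0.29) and -1.49 (SE 0.36). The first lost its call without Stage 2 replicate 1 or 3 or iPSC replicate 1 or 3 (log2 changes 1.05, 1.00, 1.02 and 1.03), with DESeq2 (1.10, adjusted p = 0.0642) and scaled to all reads (0.86). The second lost it without Stage 2 replicate 1 or 2 or iPSC replicate 1 (-1.49, -1.47 and -1.24).

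**Figure D5:**
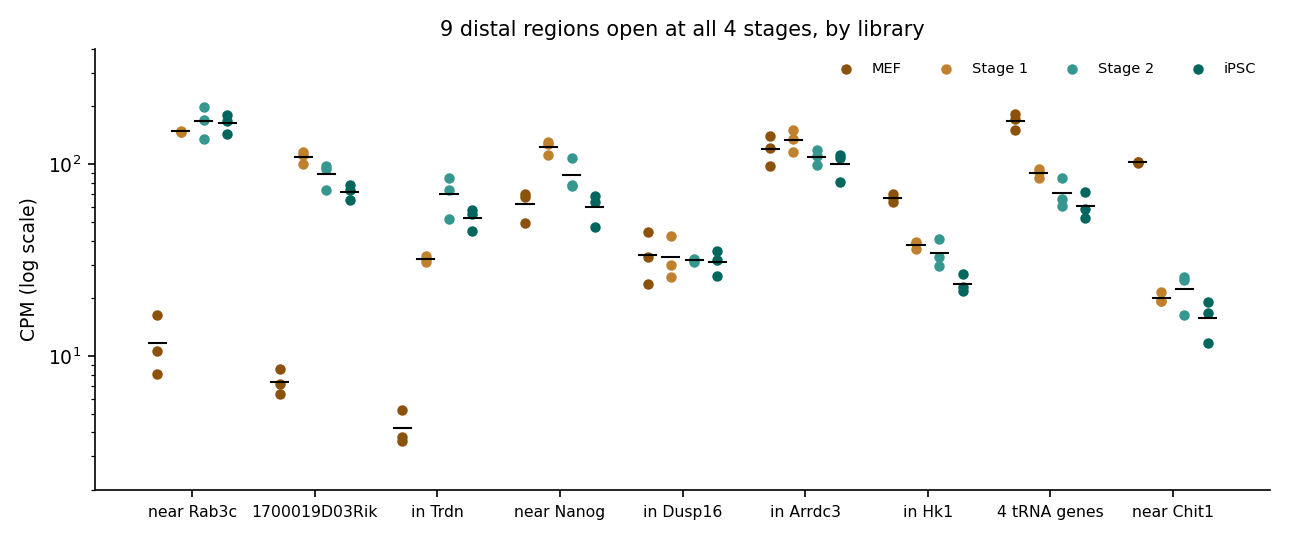
Level of 9 members in each library (y axis, CPM on a log scale; points are libraries, bars the mean of 3). The regions near Rab3c, at 1700019D03Rik and in Trdn lie higher in the later groups than in MEF, those in Dusp16 and Arrdc3 overlap MEF throughout, and those in Hk1, at 4 tRNA genes and near Chit1 lie below MEF in every later library.

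Near genes of the pluripotency network, members rose more often than they fell on the scale of region reads. Members inside a listed gene or within 50 kb of one were counted for each list, and such a member may belong to another gene nearby. Of all tested regions 39.1% rose and 43.0% fell from MEF to iPSC, and of all tested members 38.5% and 25.2%. The counts of the lists were not tested against these shares. Of 15 near pluripotency genes, 8 rose and 0 fell from MEF to iPSC (median log2 change 0.70, where all 4541 tested members had 0.23, and -0.56 against -1.04 when scaled to all reads). The region of highest level lies 4139 bp from Nanog, a core pluripotency factor (chr6:122702251-122703350), and was open in fibroblasts at 69.9, 67.7 and 49.1 CPM. It measured 128, 131 and 112 in Stage 1, 108, 77.8 and 77.4 in Stage 2, and 68.3, 63.5 and 47.1 in iPSC. Stage 1 stood above every other library, with a log2 change of 0.96 from MEF (SE 0.15, edgeR adjusted p = 4.35e-09; 0.22, adjusted p = 0.496, scaled to all reads), and MEF and iPSC overlapped (-0.07, SE 0.16; -1.36 scaled to all reads). A region inside Slc2a3, a glucose transporter gene (chr6:122764451-122765550), went from 16.4, 12.4 and 10.97 CPM in MEF to 68.2, 57.8 and 71.3 in Stage 1, 84.9, 64.9 and 62.4 in Stage 2 and 40.8, 50.2 and 36.1 in iPSC. Its log2 change from MEF to iPSC was 1.64 (SE 0.20, edgeR adjusted p = 4.29e-12; 0.36, adjusted p = 0.307, scaled to all reads), and it fell by 0.74 from Stage 2 to iPSC (SE 0.18, edgeR adjusted p = 0.0111; adjusted p = 0.0948 scaled to all reads).

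Near genes of the fibroblast state, members fell in about the share seen over all tested regions. Of 7 near mesenchymal genes, 0 rose and 3 fell (median -0.35), and of 23 near AP-1 and other somatic factors 6 rose and 11 fell (median -0.40). Scaled to all reads, the medians of both were -1.61 and -1.67, the latter the lowest among the 10 lists counted, whose medians were then all below 0. The highest region near AP-1 and other somatic factor genes lies 25843 bp from Tead4, a TEA-domain factor gene (chr6:128200251-128201300), and went from 95.95, 87.9 and 75.8 CPM in MEF to 78.5, 57.7 and 70.1 in iPSC, which overlap (-0.34, SE 0.15, edgeR adjusted p = 0.0287). The next, 18090 bp from Fos, an AP-1 subunit (chr12:85454901-85455800), measured 77.0, 76.3 and 59.6 CPM in MEF and 40.8, 35.1 and 27.1 in iPSC and fell by 1.04 (SE 0.17, edgeR adjusted p = 4.86e-08). The highest region near mesenchymal genes, near Zeb1, a repressor of epithelial genes, measured 43.6, 47.0 and 41.97 CPM in MEF and 32.96, 36.8 and 35.1 in iPSC (-0.34, SE 0.18, edgeR adjusted p = 0.0708; -1.61, adjusted p = 1e-06, scaled to all reads). A region inside Pdgfra, a receptor of mesenchymal cells (chr5:75155601-75156600), measured 25.6, 29.9 and 31.5 CPM in MEF and 42.4, 33.4 and 21.04 in iPSC, which overlap (0.20, SE 0.20, edgeR adjusted p = 0.334; -1.06, adjusted p = 0.00169, scaled to all reads). Of 12 members near TGF-beta pathway genes, 3 rose and 5 fell (median -0.21). The region near Smad7, an inhibitor of the pathway, went from 51.6, 61.1 and 53.9 CPM in MEF to 18.4, 11.3 and 19.4 in Stage 1, a log2 change of -1.72 (SE 0.21, edgeR adjusted p = 1.23e-12), and stayed below MEF at 22.8, 29.3 and 26.1 CPM in iPSC. The inner start of Tgfb2, a ligand (chr1:186705051-186706300), measured 31.5, 35.9 and 31.5 CPM in MEF and 23.6, 32.6 and 32.1 in iPSC, which overlap (-0.18, SE 0.19, edgeR adjusted p = 0.386; -1.44, adjusted p = 2.15e-05, scaled to all reads).

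Of 9 members near epithelial genes, 3 rose and 2 fell (median -0.08). A region inside Marveld3, which encodes a tight junction protein (chr8:109957051-109958050), went from 4.97, 7.19 and 7.63 CPM in MEF to 28.6, 42.3 and 25.9 in Stage 1 and 24.3, 30.9 and 25.1 in iPSC, without overlap with MEF (2.06, SE 0.26, edgeR adjusted p = 1.79e-11). Scaled to all reads, the change of the Marveld3 region was 0.81 (edgeR adjusted p = 0.0384). A region inside Krt78, a keratin gene (chr15:101983851-101984750), fell by 0.78 (SE 0.20, edgeR adjusted p = 0.000369). Of 15 members near cell cycle genes 4 rose and 3 fell (median -0.04), of 12 near imprinted genes 3 and 4 (median -0.18), and of 4 in the Hox clusters 0 and 1 (median 0.06, and -1.21 scaled to all reads). The highest regions near cell cycle genes changed by -0.95 inside Zfp341 (SE 0.18, edgeR adjusted p = 9.26e-07) and 0.43 inside Ccnd3, a cyclin gene (SE 0.17, edgeR adjusted p = 0.0182; -0.83, adjusted p = 0.0105, scaled to all reads). The region inside Peg3, an imprinted zinc finger gene (chr7:6727151-6729050), measured 194, 191 and 168 CPM in MEF, 142, 125 and 121 in Stage 1, 96.3, 129 and 112 in Stage 2, and 73.8, 87.8 and 74.1 in iPSC. Every iPSC library lay below every other library, and it fell by 1.23 from MEF (SE 0.14, edgeR adjusted p = 2.04e-13). A region in the Hoxa3 gene at the start of the lncRNA gene Gm15050 (chr6:52172351-52173100) fell by 1.06 (SE 0.26, edgeR adjusted p = 0.000151). The second regions of these 2 lists, inside Cep41 and Hoxd10, had log2 changes of -0.49 (SE 0.21, edgeR adjusted p = 0.0274) and 0.24 (SE 0.28, edgeR adjusted p = 0.428).

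Near genes of glycolysis and of genome architecture, rises and falls were of similar number, and the inner starts of highest level fell. Of 12 members near glycolysis genes, 3 rose and 4 fell (median -0.25). The inner start of Hk1, a hexokinase (chr10:62339901-62340850), measured 66.8, 69.7 and 63.4 CPM in MEF, 35.95, 39.2 and 38.9 in Stage 1, 32.7, 40.97 and 29.3 in Stage 2, and 26.7, 21.7 and 23.04 in iPSC, and every later library lay below MEF. It fell by 1.48 (SE 0.18, edgeR adjusted p = 3.88e-12), and the inner start of Aldoa, an aldolase (chr7:126798901-126799850), by 1.22 (SE 0.17, edgeR adjusted p = 4.9e-10). Of 11 members near genes of genome architecture, 4 rose and 5 fell (median -0.19). The inner start of Stag1, a cohesin subunit (chr9:100642951-100643850), fell by 0.75 (SE 0.15, edgeR adjusted p = 7.34e-06), and that of Lmna, the gene of lamin A (chr3:88492301-88493400), by 1.17 (SE 0.18, edgeR adjusted p = 1.05e-08). In MEF the Lmna region measured 52.6, 65.2 and 67.2 CPM, and in iPSC 26.7, 30.1 and 24.1, without overlap.

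A few members were far denser than the rest. Above 100 CPM per kb of width lay 49 members, of which 24 are among the 30 members inside Sfi1 on chromosome 11 (from base 3134801 to 3200050). This density was taken from CPM averaged with equal weight over the 4 groups, so a member high only after MEF could enter. One such member is chr1:24612401-24613050, at 110.4 CPM per kb with a mean of 4.44 CPM in MEF. The counts of rises and falls given below for the 49 thus partly reflect their choice. The 3 densest, from 1112 to 1211 CPM per kb, lie within chr17:39842901-39848900 at Rn18s-rs5, a ribosomal RNA-related sequence, and the next lie within chr2:98662051-98667500, with no protein-coding gene within 100 kb. Reads of repeated sequence cannot be assigned to 1 copy, so these levels are uncertain. The 49 held 3.53%, 6.11% and 10.1% of member reads in MEF and from 10.7% to 15.6% in the later libraries. From MEF to iPSC 44 of them rose (89.8%, against 39.1% of all tested regions) and 3 fell (6.12%, against 43.0%), with a median log2 change of 1.58. Scaled to all reads 13 rose (26.5%, against 23.7% of all tested regions) and 4 fell (8.16%, against 57.8%), with a median of 0.40. Counted against all reads in place of region reads, they held 602, 782 and 904 CPM in the MEF libraries, between 1067 and 1158 at Stage 1, between 888 and 1053 at Stage 2, and 809, 786 and 780.3 in the iPSC libraries, so MEF and iPSC overlapped on that scale. The other 4494 members held 16430, 12020 and 8015 such CPM in MEF and 5046, 5260 and 4237 in iPSC.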

How the data were processed

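Open chromatin was measured by ATAC-seq in 12 libraries, 3 in each of 4 groups, with groups and replicate numbers taken from the sample labels. The authors deposited raw read counts for 115000 regions and 1 interval list for each stage, every row of which is marked as found in all 3 replicates, with ends at multiples of 50 bp. The submitters' processing notes list, without saying what each did, DESeq2 1.12.4, HTSeq 0.5.4p3, SAMtools 0.1.19, Picard 2.6.0 and Bowtie2 2.2.6, and mm10 as the build. The peak caller is not given in the sources used here. Reads outside the regions (77.7% to 95.5% of a library) and ambiguous reads (0.0311% to 0.230%) were kept out of the region totals.

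Distances were taken to 21900 protein-coding genes of the RefSeq table of GRCm38.p6. The main test was edgeR 4.0.16 (R 4.3.3, limma 3.58.1), a quasi-likelihood fit over all 4 groups after TMM scaling and filterByExpr at a minimum count of 10 and total of 15 (71069 regions kept), a prior count of 2 and Benjamini-Hochberg adjustment over all tested regions at 0.05. It was also run on simulated counts in which only a small part of the regions changed, so that run does not test the choice of scaling. DESeq2 1.42.0 was an alternative, as were no filter, scaling to all reads, thinning to 1034936 reads in regions, a replicate block and leaving out each library. For shares of reads, exact two-sided permutation tests were run (Python 3.11.15, pandas 2.3.3, numpy 2.4.6, scipy 1.17.1), whose smallest p for 3 against 3 is 0.1. No replicate pair was as alike as sampling noise alone allows: the chi-square per degree of freedom ran from 1.02 (Stage 1 replicates 2 and 3, p = 0.000376 over 60760 regions) to 2.14 (MEF replicates 1 and 3), so each library was counted once.

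The members and the gene lists were chosen with earlier results of these data known. Named regions were the 3 largest rises and falls of each comparison among called regions whose groups do not overlap and whose mean is 2 log2 CPM or more, the 5 densest, the 5 of smallest range at 4 log2 CPM or more, and the 2 highest within 50 kb of the genes of each list. One region that this rule picks is not reported here. A nearest gene is named within 100 kb. Outside levels were taken over the 2654650992 bp not in regions. No genome sequence was used, so sequences and motifs cover RefSeq start windows only.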

Additional observations from a re-analysis of the deposited data

How the results depend on the processing

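The numbers of members called between MEF and the later groups (2813 for Stage 1 and 2896 for iPSC) stayed within 1.5 times under DESeq2 (2493 and 2620), no filter, scaling to all reads, thinning, 50% list coverage and every left-out library (2561 to 2902 and 2584 to 2920). Among the 1274 tested members more than 10 kb from gene ends and outside genes they were 842 and 846. The later steps moved more. The 466 calls from Stage 1 to Stage 2 became 198 with DESeq2, 303 scaled to all reads, 146 under the 10 kb rule and 237 to 587 with 1 library left out. The 101 calls from Stage 2 to iPSC became 32, 11, 27 and 14 to 148, and 60 with at least 50% of the width covered by each list. The 10 kb and coverage rules test fewer members; the other causes were not tested. The difference in the share of region reads, iPSC minus MEF, was 3.65 percentage points (3.59 to 3.77 with 1 library left out, 1.56 under the 10 kb rule, 3.12 under the coverage rule, 2.55 without the densest 49 members) and reversed to -0.728 with all reads as the denominator. With a replicate block the calls were 2809, 475, 104 and 2903. Deviations of libraries with the same number correlated between -0.0645 and 0.0656, and those with different numbers between -0.0761 and 0.0750. No pairing by number was thus seen, though deviations close to sampling noise cannot exclude one. Beyond 10 kb from gene ends, 49.5% of members lay inside a gene, 14.1% had a lncRNA end and 17.3% a start. In the central 200 bp of the windows, 9 of 13 motif shares moved beyond their binomial interval. A shorter stretch can only keep or lower a share, and the comparison between sets was not repeated on it. The planned search of region centres was not run, since no genome sequence was used here. The depth of 19 to 71 reads in the median member limits single regions between neighbouring stages.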

Other observations

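Members made up from 3.40% of the counted regions of chromosome 15 to 4.78% of chromosome 7 among the autosomes, 3.66% on X (100 members) and 20% on Y, where they number 4. From MEF to iPSC 28 of the members on X rose and 41 fell, which is 28% and 41% where 39.1% and 43.0% of all tested regions did. Their median log2 change was -0.28, and all tested members had 0.23. All tested regions on X had a median of 0.046, and those of all chromosomes -0.11. A RefSeq start lay in 41% of the members on X and in 22.4% of all members, and its part in the lower median was not tested. Scaled to all reads, 0 of the members on X rose and 69 fell (69%), with a median of -1.57, where 23.7% and 57.8% of all tested regions did. The share of member reads on X had means of 2.22%, 2.28%, 2.25% and 1.99% for MEF, Stage 1, Stage 2 and iPSC, and the iPSC libraries lay below those of MEF and Stage 2 without overlap (two-sided exact permutation p = 0.1, adjusted 0.123 over 48 tests). Over all counted regions the share of reads on X also went from 2.06% in Stage 2 to 1.75% in iPSC without overlap, while MEF, at 1.79%, overlapped iPSC. The sex of the cells is not given in the sources used here.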
